A study of Caenorhabditis elegans with 4 samples.

Results

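cel-miR-71 and cel-miR-246 are *Caenorhabditis elegans* miRNAs that are known from genetics to promote lifespan and survival of stress. They were chosen by name from a table of 205 mature miRNAs, where both arms of both hairpins were listed, so that 4 of the 205 rows and 2 of the 132 hairpins are described here. The table comes from whole animals of the wild-type N2 Bristol strain at the last larval (L4) stage, which carry no transgene or mutation and were fed OP50 bacteria. The control (CTRL) group stayed at 20°C and the heat shock (HS) group was shifted to 35°C, and each was sampled with 2 small RNA libraries. The HS period is 4 h in the sample characteristics and 6 h in the treatment protocol, and the latter is also the time that the methods of the study state for small RNA.

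A miRNA is cut from a hairpin precursor as a short duplex with a 5p and a 3p strand. One strand, the guide, is kept by an Argonaute protein and pairs through bases 2 to 8, its seed, with target mRNAs, whereas the other, the passenger, is mostly degraded. miR-71 extends the lifespan of worms that lack a germline and helps starved first-stage larvae to survive, and it also acts in the choice of left and right AWC olfactory neuron fates by repressing *tir-1*. Animals that lack miR-246 live shorter and cope less well with stress. The mature sequences of the arms were not analysed here, so neither their seeds nor any sharing of seeds is shown.

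Levels below are the authors' mean normalized counts, that is, read counts divided by a size factor for the depth of each library and averaged over all 4 libraries, CTRL and HS together. Each miRNA therefore has 1 value, without a spread between replicates and without a level for either temperature, and the comparison of HS with CTRL was not analysed here. As the groups had equal numbers of libraries, the mean of a single group can be at most 2-fold the value printed, and it can be far below it. Where a miRNA differs between the temperatures, its pooled mean need not be its level in either group. Every rank, ratio and order below is one of pooled means, and may not hold within CTRL or within HS. A read spans a whole mature miRNA, so levels were compared without division by length, but ligation and amplification differ between sequences and differences in level are approximate for that reason. In whole animals, fewer cells that make a miRNA cannot be told apart from less of it in each cell.

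The 3p arm of miR-246 and the 5p arm of miR-71 stood next to each other when all listed miRNAs were ranked by their pooled means. The mean normalized count was 49345 for miR-246-3p, which was 30th of 205. It was 42868 for miR-71-5p, which was 31st. These 2 pooled means differed 1.15-fold. They show neither how close the 2 arms were in CTRL or in HS nor which was higher there, and there is no spread between libraries against which to read the difference. Both were abundant but not among the dominant species. Relative to the median of 1512 over all listed miRNAs, miR-246-3p was 32.6-fold higher and miR-71-5p 28.4-fold higher. The most abundant miRNA, miR-82-3p at 1136489, was in turn 23.0-fold above miR-246-3p and 26.5-fold above miR-71-5p. As a share of the summed level of all listed miRNAs, miR-246-3p held 0.499% and miR-71-5p 0.433%, while the 10 most abundant miRNAs together held 68.8%. Since a mean over 2 groups limits each group to 2-fold of it, the level in CTRL or HS alone could not have exceeded 98689 for miR-246-3p or 85735 for miR-71-5p.

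The other strands of the same hairpins were far apart from each other. miR-71-3p had a mean normalized count of 10526 and was 53rd of 205, in the upper part of the table. miR-246-5p had 444 and was 147th, below the median of all listed miRNAs. The weaker strand of miR-71 was thus 23.7-fold more abundant than the weaker strand of miR-246, again in pooled means. The sums of the pooled means over both arms, 53394 for miR-71 and 49788 for miR-246, differed 1.07-fold, and the sums within CTRL or within HS are not known. miR-71-3p held 0.106% of the summed level and miR-246-5p held 0.00449%, and all 4 arms together held 1.04%.

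**Figure D1:**
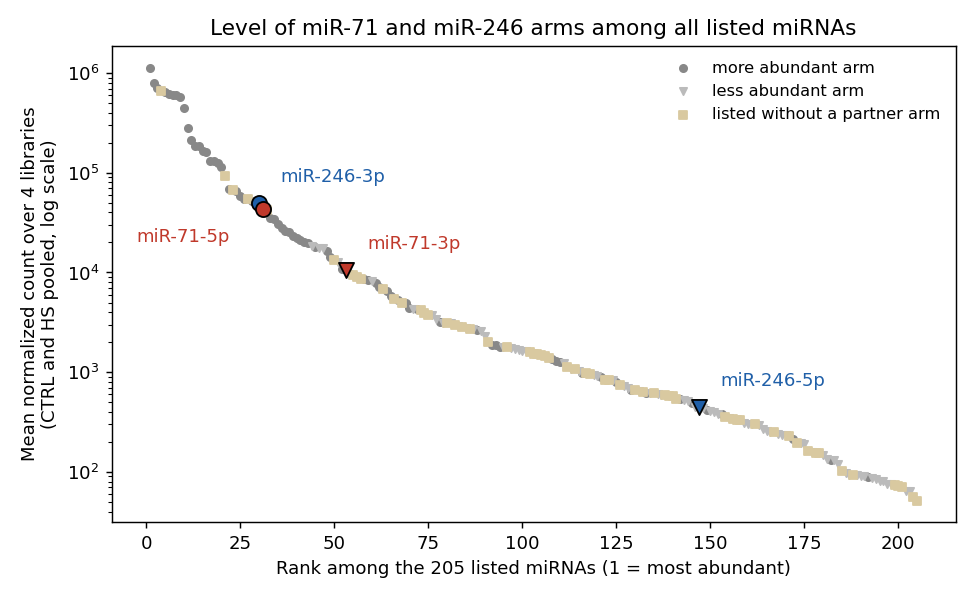
Mean normalized count (log scale, CTRL and HS pooled) of each of the 205 listed miRNAs against its rank, with one point per miRNA and no error, since 1 pooled value is given for each. miR-246-3p (49345) and miR-71-5p (42868) lie side by side in these pooled means at ranks 30 and 31, miR-71-3p (10526) at rank 53 and miR-246-5p (444) at rank 147.

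Neighbours in level were fixed by rank, as the 2 miRNAs next above and next below each arm, and with a pooled mean they share a level and not a pattern across conditions. Directly above miR-246-3p were miR-55-3p at 50096 mean normalized counts and miR-84-5p, a let-7 family member that times larval development, at 52209. Directly below miR-71-5p were miR-244-5p at 42513 and miR-47-3p at 35390. miR-84-5p was 1.06-fold the level of miR-246-3p and miR-244-5p was 0.992 of that of miR-71-5p. Larger steps were those from miR-71-5p to miR-246-3p, at 1.15-fold, and to miR-47-3p, at 0.826 of miR-71-5p. Neighbours picked by rank are close in level by construction. For miR-71-3p the neighbours were miR-54-5p (12618) and miR-241-5p (10734), another let-7 family member, above, and miR-79-3p (9895) and the stress-associated miR-239b-5p (9423) below. miR-246-5p stood between miR-1829a-5p (494) and miR-788-3p (453) on the upper side and miR-1830-5p (435) and miR-797-5p (416) on the lower. None of these orders can be tested without values per library.

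The hairpins also differed in the balance of their arms. In miR-71 the 5p arm was the more abundant, by 4.07-fold, and made up 80.3% of the sum of both arms, which leaves 19.7% for miR-71-3p. In miR-246 it was the 3p arm, by 111-fold, with 99.1% of the sum and 0.892% for miR-246-5p. The ratio of the arms was thus 27.3-fold larger in miR-246. Among the 73 hairpins listed with both arms, ratios ran from 1.01 to 4263 with a median of 20.8, and miR-246 was 23rd and miR-71 55th from the largest. The 59 hairpins listed with a sole arm have no ratio, and those arms ran from 51.5 (miR-78) to 665208 (miR-57-5p). If their other arms were unlisted because they were low, large ratios are missing. The range, medians and ranks of ratios therefore hold only among the 73. A ratio under 10 was found for 32 of the 73 hairpins, miR-71 among them. In 29 hairpins the 5p arm led, with a median ratio of 7.64, and in 44 the 3p arm led, with a median of 24.0. The miR-71 ratio was therefore below, and the miR-246 ratio above, the median for hairpins with the same leading arm.

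The hairpins closest to miR-246 in this ratio were miR-55 (125) and miR-53 (114) above and miR-48 (110) and miR-37 (71.7) below. Those closest to miR-71 were miR-56 (5.14) and miR-63 (4.45) above and miR-46 (3.92) and miR-241 (3.72) below. miR-55 was also a neighbour of miR-246-3p in level, and miR-241-5p of miR-71-3p. Ratios of arms come from different sequences and carry the same limit of ligation and amplification as levels. They were also taken from means over both temperatures, so the ratio within CTRL or within HS can differ from them.

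**Figure D2:**
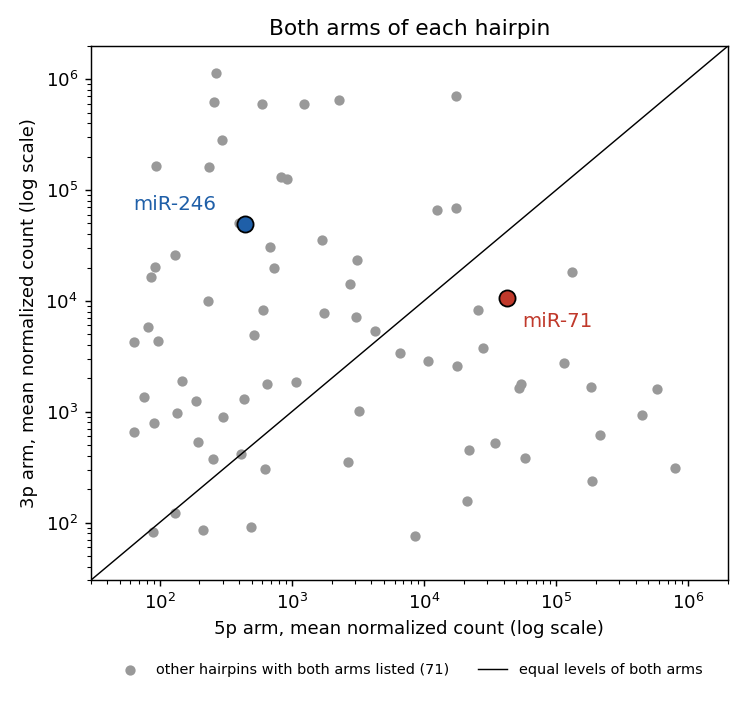
Mean normalized count of the 3p arm against that of the 5p arm (both log scales, CTRL and HS pooled) for the 73 hairpins listed with both arms, with one point per hairpin. miR-71 lies below the line of equal levels, with 5p 4.07-fold above 3p, and miR-246 lies above it, with 3p 111-fold above 5p, nearly on top of the point of miR-55.

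miR-71-3p was unusual in its level among weaker arms. The median over the 73 weaker arms was 453, so that miR-71-3p was 23.3-fold above it and was the 5th most abundant of the 73. Only miR-229-3p (18285), miR-80-5p (17624), miR-46-5p (17561) and miR-54-5p (12618) were higher, and these were named here after their values had been seen. It also exceeded the more abundant arm of 31 of the 73 hairpins. miR-246-5p, by contrast, was near the middle of these listed weaker arms, 38th of the 73 and at 0.981 of their median. Among the 73 more abundant arms, with a median of 20314, miR-246-3p was 26th and miR-71-5p 27th, which was 2.43-fold and 2.11-fold the median. These 73 leave out the 59 hairpins listed with a sole arm. If their other arms were unlisted because they were low, the median over all weaker arms would be lower than 453.

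Both miRNAs were set beside other miRNAs known to affect the lifespan of worms, a list of 9 hairpins with lin-4, miR-34, miR-80, miR-228, miR-238, miR-239a and miR-239b. The list is not limited to miRNAs that promote lifespan. All 9 hairpins were listed. Their most abundant arms ran from 3223 mean normalized counts for miR-239a-5p to 705995 for miR-80-3p, with a median of 42868 that is miR-71-5p itself. The median of 1512 over all listed miRNAs is not a like measure, since it also counts weaker arms. Over the more abundant arms of the 73 hairpins listed with both arms, the median was 20314. Those 73 leave out hairpins listed with a sole arm, such as miR-239b of this list. With sole listed arms counted, the leading arms of the 30 hairpins in same-strand introns had a median of 3437. Those of the 82 hairpins outside protein-coding genes had a median of 3162. By pooled mean, miR-246-3p was 4th and miR-71-5p 5th of the 9, and the order within CTRL or HS may be another. Above them were miR-80-3p, a member of the bantam-type family, miR-228-5p at 582252, whose loss lengthens life, and miR-238-3p at 132007. Below them were lin-4-5p at 34550, the heterochronic miRNA that represses *lin-14*, then miR-239b-5p at 9423, miR-34-3p at 5326 and miR-239a-5p.

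A second list held 8 hairpins that have been tied to survival of heat, namely miR-71, miR-80, miR-229, miR-64, miR-66, miR-239a, miR-239b and miR-246. The list mixes directions. In earlier work cited by the study, worms that lack both miR-239 miRNAs survived heat better. Worms without miR-71, without miR-80, without miR-246 or without the cluster of miR-229, miR-64 and miR-66 were more sensitive. All 8 hairpins were listed, and by pooled mean miR-246-3p and miR-71-5p were 5th and 6th. miR-64-5p (214114), miR-229-5p (132073) and miR-66-5p (58210), which come from one cluster of hairpins on chromosome III, and miR-80-3p were more abundant, and both miR-239 miRNAs less. In their weaker arms these hairpins fell on both sides of miR-71-3p, as miR-229-3p (18285) and miR-80-5p (17624) were above it, whereas miR-239a-3p (1022), miR-64-3p (621) and miR-66-3p (380) were below it and closer to miR-246-5p (444). The lists overlap, with 5 hairpins on both.

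**Figure D3:**
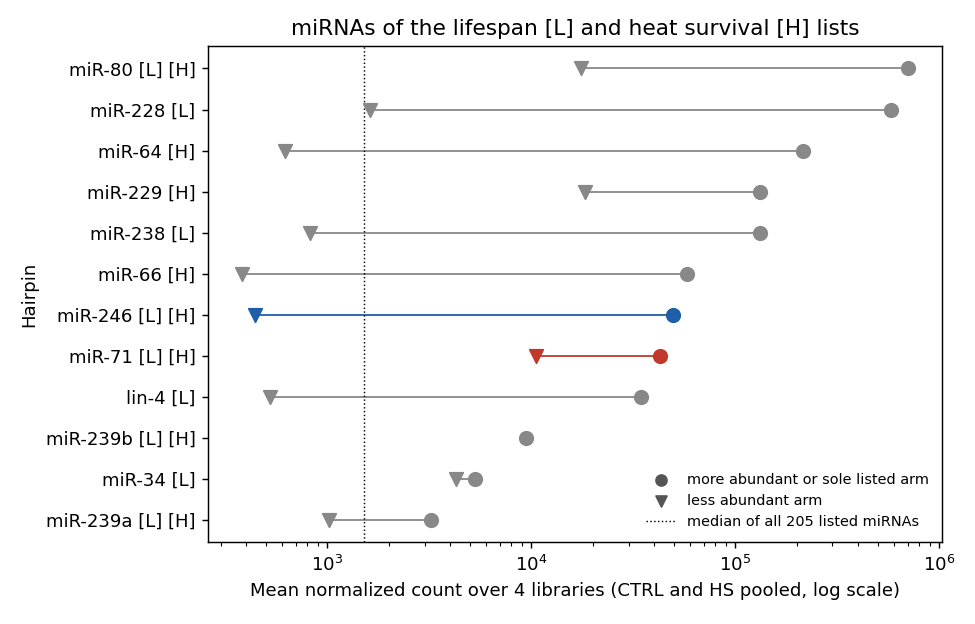
Mean normalized count (log scale, CTRL and HS pooled) of both arms of each hairpin on the lifespan list [L] and the heat survival list [H], with circles for the more abundant or sole listed arm, triangles for the other arm, and a dotted line at the median of all listed miRNAs (1512). miR-246 and miR-71 have adjacent circles in these pooled means, at 49345 and 42868, but triangles at 444 and 10526.

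The hairpins were placed on the WBcel235 assembly by their names in the Ensembl annotation. mir-71 (WBGene00003299) spans 94 bases of chromosome I, from 9379927 to 9380020 on the minus strand. It lies in an intron of *ppfr-1*, which encodes a regulatory subunit of a protein phosphatase and runs on the same strand from 9364099 to 9389982. That intron, bounded by the nearest exons of any transcript of the gene, is 10404 bp long (9372068 to 9382471) and also holds mir-2, at 9372768 to 9372865 on the minus strand and 7061 bp from mir-71. In many other invertebrates a miR-71 gene likewise neighbours genes of the miR-2 family. From this shared intron, miR-2-3p had a mean normalized count of 25782 and was 37th of 205, so that miR-71-5p was 1.66-fold above it. The weaker arm, miR-2-5p, had only 130 and was 183rd, unlike miR-71-3p with 10526. The 2 hairpins of this intron thus had leading arms within 1.66-fold of each other and weaker arms far apart in pooled mean. Of the 129 listed hairpins that could be placed, 30 lay in an intron on the same strand. With a sole listed arm counted as leading, miR-71-5p was the 8th most abundant of their leading arms, which had a median of 3437.

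mir-246 (WBGene00003340) spans 97 bases of chromosome IV, from 10940134 to 10940230 on the plus strand, and lies outside protein-coding genes, as did 82 of the 129 placed hairpins. Its leading arm, miR-246-3p, was the 18th most abundant of these 82, whose leading arms, sole listed arms included, had a median of 3162. The gene begins 199 bp past the end of *fic-1*, on the same strand at 10937454 to 10939934, which encodes an enzyme that attaches AMP to chaperones. On the other side the nearest protein-coding gene, Y69E1A.1, is 6997 bp away on the opposite strand. The closest annotated miRNA gene is mir-2210, 25455 bp away, against a median of 12322 bp over the placed hairpins, so mir-246 does not sit in a tight cluster.

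Within both hairpins the annotated 5p arm is 23 bases long and the 3p arm 21 bases, although the leading arm is the 5p in miR-71 and the 3p in miR-246. miR-71-5p spans 9379983 to 9380005, bases 16 to 38 of the hairpin, and miR-71-3p spans 9379948 to 9379968, bases 53 to 73. miR-246-5p spans 10940152 to 10940174, bases 19 to 41, and miR-246-3p spans 10940194 to 10940214, bases 61 to 81. This pair of lengths was annotated for only 6 of 116 hairpins with 2 annotated arms. The other 4, named after their values had been seen, were miR-64, miR-65, miR-66 and miR-124, the first 3 of which are neighbours on chromosome III. The arms of miR-71 are separated by 14 bases, the smallest gap among the 116 hairpins, which 10 of them had. Those of miR-246 are separated by 19 bases, near the median of 18.

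**Figure D4:**
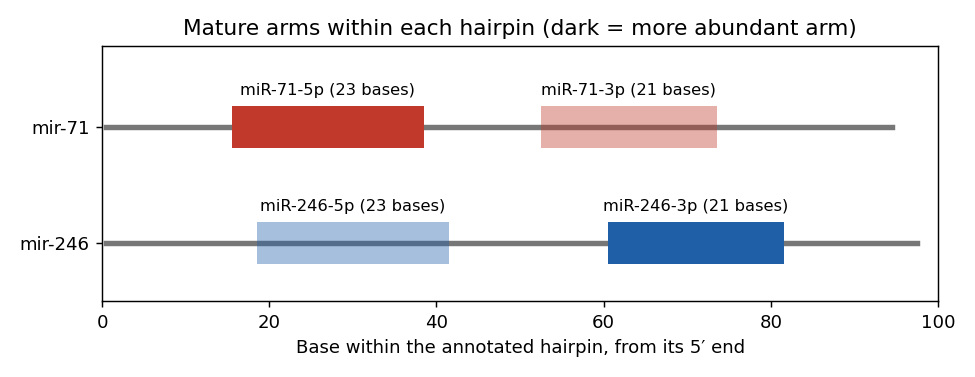
Position of the mature arms (bars) within the annotated hairpin (grey line) of mir-71 and mir-246, in bases from the 5′ end of each hairpin, with the more abundant arm in the dark shade. The arms have the same lengths, 23 and 21 bases, in both hairpins but are 14 bases apart in mir-71 and 19 in mir-246, and the dark arm is on opposite sides.

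Both miRNAs were also set beside miRNAs of known timing and tissue. These levels do not test the label of whole L4 animals, since the table holds listed miRNAs alone and no list was one that such animals should lack. The leading arms of lin-4, let-7, miR-48, miR-84 and miR-241, which time larval development, ran from 10734 to 183674 mean normalized counts, a range that holds both miR-71-5p and miR-246-3p. Muscle miR-1-3p was at 8318, neuronal miR-124-3p at 617 and lsy-6 at 972. Of the 8 members of the embryonic and germline miR-35 family, 7 were listed, with leading arms from 638 to 13420. Among the leading arms of these lists, only miR-48-5p, let-7-5p and miR-84-5p were above miR-71-5p and miR-246-3p.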

How the data were processed

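Small RNA libraries were grouped by their titles into CTRL and HS, 2 each. Total RNA was extracted by the authors with Trizol, made into libraries with the TruSeq Small RNA kit, and the reads were mapped to *C. elegans* miRNAs and analysed in DESeq2, with 2 independent biological replicates per group. The miRNA aligner and reference, how reads matching several miRNAs were treated, any filter on low counts and tool versions are not given in the sources used here. One table was deposited. Per the file header it gives for each miRNA a signal, which is the size-factor-normalized count from DESeq2 averaged over all libraries. The 2 other columns deposited by the authors hold their own comparison of HS with CTRL (fold change and adjusted p-value) and were not used. Library depths are therefore unknown, no interval or detection limit was computed, and no test was run.

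Arms were paired by name after removal of the 3p or 5p suffix, and ranks, shares of the summed level and the ratio of the more to the less abundant arm were computed in Python 3.11.15 (pandas 2.3.3) by functions tested on simulated data. Hairpins were matched by name to Ensembl release 115 (WBcel235, coordinates from 1), the assembly that corresponds to the WS235 genome named for the long RNA reads of the study. Of 132 hairpins, 129 matched 1 gene, and mature lengths were found for 192 of 205 miRNAs. Named miRNAs were the 4 arms, the 2 next above and below each in level, the 2 hairpins next above and below each hairpin in arm ratio, and the lifespan, heat survival, timing and tissue lists. Other miRNAs, such as miR-82-3p and miR-2, were added after their values had been seen. The members and lists were chosen with earlier results of these data known. Alternatives were a level per base, other sets of miRNAs for ranks and shares, a pseudocount of 10, and a minimum of 100 for both arms.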

Additional observations from a re-analysis of the deposited data

How the results depend on the processing

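Of 28 values recomputed under an alternative, 24 stayed within 1.5-fold of the value reported, a limit set here because no spread between replicates is known. Many of the 24 could hardly have moved, so their number does not measure robustness. The arms are 21 or 23 bases long against a median of 22, and 10 is small beside the lowest arm at 444. Leaving out the most abundant miRNA, with 11.5% of the sum, raises all shares by the same factor. The 4 that moved were the shares of the summed level without the 10 most abundant miRNAs, which became 1.60% for miR-246-3p, 1.39% for miR-71-5p, 0.341% for miR-71-3p and 0.0144% for miR-246-5p, as a smaller sum must give. Per base of mature sequence, over the 192 miRNAs with a known length, miR-246-3p was 26th and miR-71-5p 29th, and their arm ratios were 122 for miR-246 and 3.72 for miR-71. With 10 added to both arms the ratios were 109 and 4.07. Among the 60 hairpins with both arms at 100 or more, miR-246 was 19th and miR-71 44th. No paired analysis was possible because a single mean covers CTRL and HS, and leaving out single replicates or another normalization could not be run for the same reason. As the depth is unknown, no counting error can be given for any of the 4 arms.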
